A study of Drosophila melanogaster with 12 samples.

Results

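The signalling genes dos, Gprk2, for and POSH of Drosophila melanogaster were described across embryos of 2 developmental windows with and without X-ray treatment. They were chosen by identifier: the array feature of each gene (141511_AT for dos, 154978_AT for Gprk2, 142251_AT for for and 155116_at for POSH) is listed as a synonym of that gene in a RefSeq gene table. Each of the 4 genes had 1 such feature, out of 131 genes that could be named in this way and 13966 gene features on the array in all. Embryos of the C-S strain were sampled as whole embryos at stages 9 to 11, the window called sensitive in the sample titles, and at stages 13 to 15, called resistant. Each window held 3 control arrays and 3 arrays of X-ray treated embryos taken 15 to 20 minutes after treatment. Every array measured total RNA in 1 colour and carries a number from 1 to 3 in its title. The labels state neither a dose nor whether same-group arrays came from separate embryo collections, so p-values measure the spread between these arrays, part of which may be technical.

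As background, all 4 products take part in signalling inside the cell. The dos product (Daughter of sevenless) is an adaptor of the Gab family that is phosphorylated by receptor tyrosine kinases such as Sevenless and binds the phosphatase Corkscrew in Ras signalling. Gprk2 encodes a G protein-coupled receptor kinase that, in the fly, phosphorylates Smoothened and is needed for full Hedgehog signalling. The gene for (foraging) encodes a cGMP-dependent protein kinase known from its natural variants in larval feeding behaviour. POSH encodes a scaffold with a RING domain and SH3 domains that binds active Rac, links it to the JNK pathway and, in the fly, limits Imd immune signalling through Tak1.

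The values are linear intensities as deposited, with the arrays already scaled to a common mean. Differences were taken on log2(intensity + 13.3), which understates the change of weak signals. All folds given are on this scale, so they are folds of intensity + 13.3. They were tested with limma over the 10139 features that exceeded 29.9 on at least 3 of the 12 arrays, which included all 4 genes. A feature was called at a Benjamini-Hochberg adjusted p under 0.05 over all of them. The labelled windows were checked on the few listed markers that could be named. The segmentation gene en averaged 309.8 in controls at stages 9 to 11 and 69.0 at stages 13 to 15, and the mesodermal tubulin gene betaTub60D averaged 91.0 and 633. The listed markers of nervous system, epidermis, gut, haemocytes and germ line were not analysed here. Arrays of a group had Spearman correlations across features of 0.820 to 0.905 with one another.

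The adaptor gene dos was lower at stages 13 to 15 than at stages 9 to 11, in control and in irradiated embryos alike. In controls it read 93.7, 116 and 109 on arrays 1, 2 and 3 of the earlier window, against 13.3, 54.7 and 56.5 in the later one. In irradiated embryos the values were 72.1, 101 and 124 against 27.1, 31.3 and 43.5. The windows did not overlap with either treatment, and every later value lay below every earlier one, which held for 20.9% of all features in controls and 19.7% in irradiated embryos. The fall was 2.38-fold in controls, a log2 difference of −1.25 ± 0.36 (SE, n = 3 each, limma adjusted p = 0.0174). In irradiated embryos it was 2.35-fold, a log2 difference of −1.23 ± 0.36 (SE, n = 3 each, limma adjusted p = 0.0207). Of all features, 14.5% were called lower in controls, 11.6% in irradiated embryos and 9.10% in both. Since RNA came from whole embryos, fewer cells that express the gene and less RNA per cell cannot be told apart.

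The size of the fall of dos in controls depended on 1 array, the control numbered 1 of the later window, where dos read 13.3, below the 29.9 used as the filter. Without it the log2 difference was −0.79 (limma adjusted p = 0.0747). That call also ended without the control numbered 2 or 3 of the earlier window (limma adjusted p = 0.0602 and 0.0515). The call in irradiated embryos ended without the X-ray array numbered 1 or 2 of the later window or numbered 2 or 3 of the earlier one, with log2 differences of −1.21 to −1.08 (limma adjusted p = 0.0567 to 0.0829). It also ended without all 4 arrays numbered 3, a setting added once the values were known (limma adjusted p = 0.0974). A stage difference averaged over both treatments, added in the same way, was −1.24 ± 0.26 (SE, limma adjusted p = 0.00112), and dos was called under all 21 alternatives to it (limma adjusted p = 0.000268 to 0.00834). Averaged in this way, 19.9% of all features were called lower.

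The receptor kinase gene Gprk2 was also lower at the later stages in controls. It read 82.7, 112 and 129 at stages 9 to 11 and 12.6, 66.5 and 71.9 at stages 13 to 15 on arrays 1, 2 and 3. These groups did not overlap, which held in this direction for 20.9% of all features. The array numbered 1 of the later window stood far below the others of its group. The fall was 2.14-fold, a log2 difference of −1.09 ± 0.39 (SE, n = 3 each, limma adjusted p = 0.0487), where 14.5% of all features were called lower. In irradiated embryos Gprk2 read 107, 136 and 132 at the earlier and 57.8, 96.2 and 109 at the later stages, and the groups overlapped. The log2 difference there was −0.48 ± 0.39 (SE, n = 3 each, limma adjusted p = 0.422), with a 95% confidence interval of −1.31 to 0.34. The stage difference in controls minus that in irradiated embryos was −0.61 ± 0.55 on the log2 scale (SE, limma adjusted p = 0.995), so the stage differences were not shown to differ.

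The call of Gprk2 lay close to the threshold and rested on the low array. Without the later control numbered 1, where Gprk2 read 12.6 and dos 13.3, the log2 difference in controls was −0.54 (limma adjusted p = 0.218). It was −0.97 without the earlier control numbered 3 (adjusted p = 0.146) and −1.06 without the earlier control numbered 2 (adjusted p = 0.117). Across all 22 alternatives the call held in 7, with limma adjusted p from 0.00968 to 0.218. Without any 1 of the 12 arrays the log2 difference in controls stayed between −1.40 and −0.54. Averaged over treatments the stage difference was −0.79 ± 0.27 (SE, limma adjusted p = 0.0332), and it lost its call in 7 of 21 alternatives, single arrays left out giving −0.94 to −0.51 (limma adjusted p = 0.0144 to 0.0867). In all 6 pairs of same-numbered arrays Gprk2 read lower at stages 13 to 15, as dos did, a pattern shown by 19.7% of all features. This is a description, since the numbers were not taken to pair arrays between stages.

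**Figure D1:**
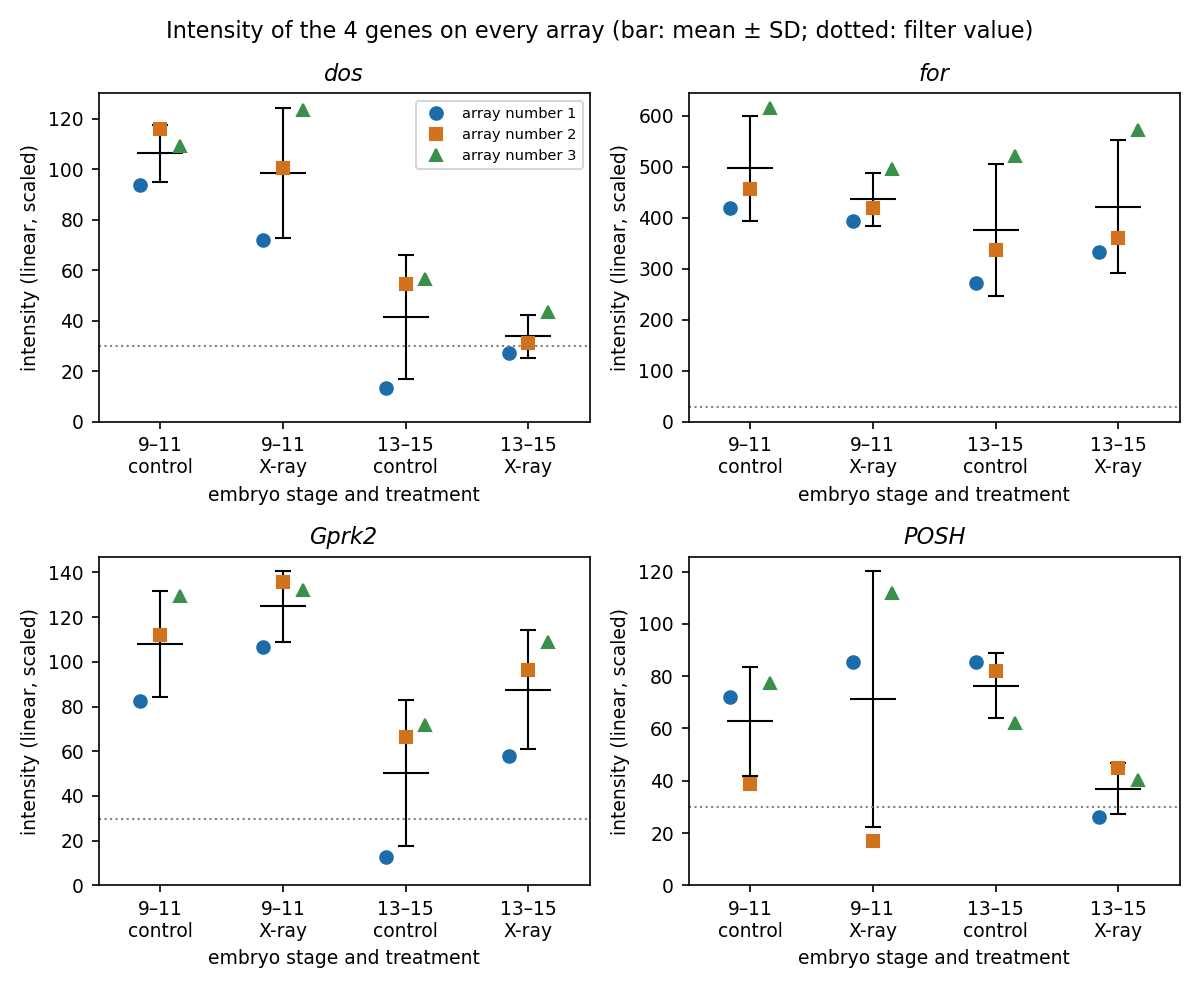
Intensity (linear scale, starting at 0) of the 4 genes on each of the 12 arrays, by embryo stage and treatment, with colour and shape giving the array number, horizontal bars the mean, whiskers the SD (n = 3) and the dotted line the filter value of 29.9. For dos every array at stages 13 to 15 lies below every array at stages 9 to 11, while for keeps the array numbered 3 highest in each group.

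**Figure D2:**
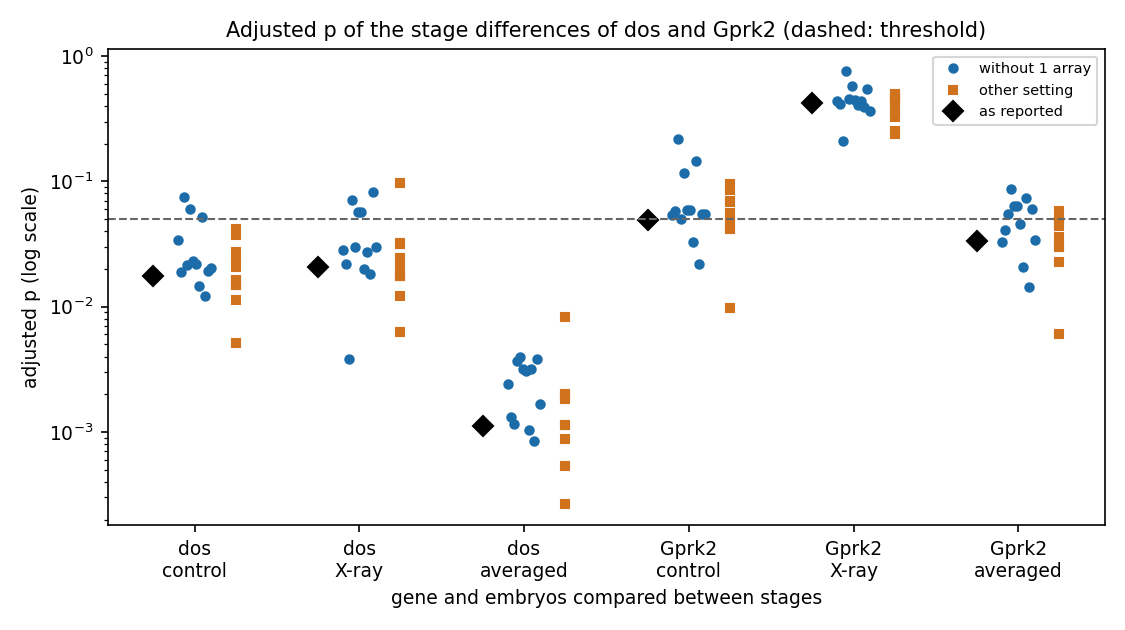
Adjusted p (log scale) of the stage difference of dos and Gprk2 in control embryos, in irradiated embryos and averaged over both, as reported (diamonds), without 1 array (circles) and under other settings (squares), with the threshold of 0.05 dashed. Only the averaged difference of dos stays below the threshold under every setting drawn.

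The stage differences of the cGMP-dependent kinase gene for did not pass in the fit of the 4 groups. In controls it read 419, 457 and 614 at stages 9 to 11 and 271.5, 337 and 520.2 at stages 13 to 15. In irradiated embryos it read 394, 419 and 495 at the earlier stages and 334, 359.8 and 572 at the later ones. All 4 groups overlapped with one another, and the array numbered 3 was the highest in each. The log2 stage difference was −0.42 ± 0.25 in controls (SE, n = 3 each, limma adjusted p = 0.236) and −0.08 ± 0.25 in irradiated embryos (SE, n = 3 each, limma adjusted p = 0.868). Within array numbers 1, 2 and 3 the difference in controls was −0.60, −0.43 and −0.23, so for read lower at the later stages on all 3 numbers. The numbers were not taken to pair arrays between stages. With the arrays numbered 3 left out, the difference in controls was −0.51 and passed (limma adjusted p = 0.0417). With the array number as a block it stayed at −0.42, with an SE of 0.14, and also passed (limma adjusted p = 0.0312). Whether for passed in controls thus depended on how the array number entered the fit. In irradiated embryos it passed under neither setting (limma adjusted p = 0.409 and 0.720).

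The values of for also differed by array number. The 4 arrays numbered 3 read 495 to 614, those numbered 1 read 271.5 to 419 and those numbered 2 read 337 to 457, so number 3 did not overlap with the others. In a fit with the 4 groups, number 3 exceeded the mean of numbers 1 and 2 by 0.55 ± 0.10 on the log2 scale (SE, limma adjusted p = 0.00517). The number 3 comparison was also added once the values were known. Of all features, 7.42% were called in that comparison and 3.60% were called higher on number 3. The other members differed by 0.42 (dos), 0.47 (Gprk2) and 0.36 (POSH), with limma adjusted p of 0.221 to 0.549. The array with the number 1 gave the lowest reading of each group for dos, Gprk2 and for, but not for POSH. Some array measures moved with the number. The 5′ over 3′ ratio of the control transcript eIF-4a was 0.140 to 0.200 on number 3, against 0.0378 to 0.0798 on the others. The brightest feature read 11073 to 12532 on number 3, against 20207 to 24796. Their part in the values of for was not tested.

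**Figure D3:**
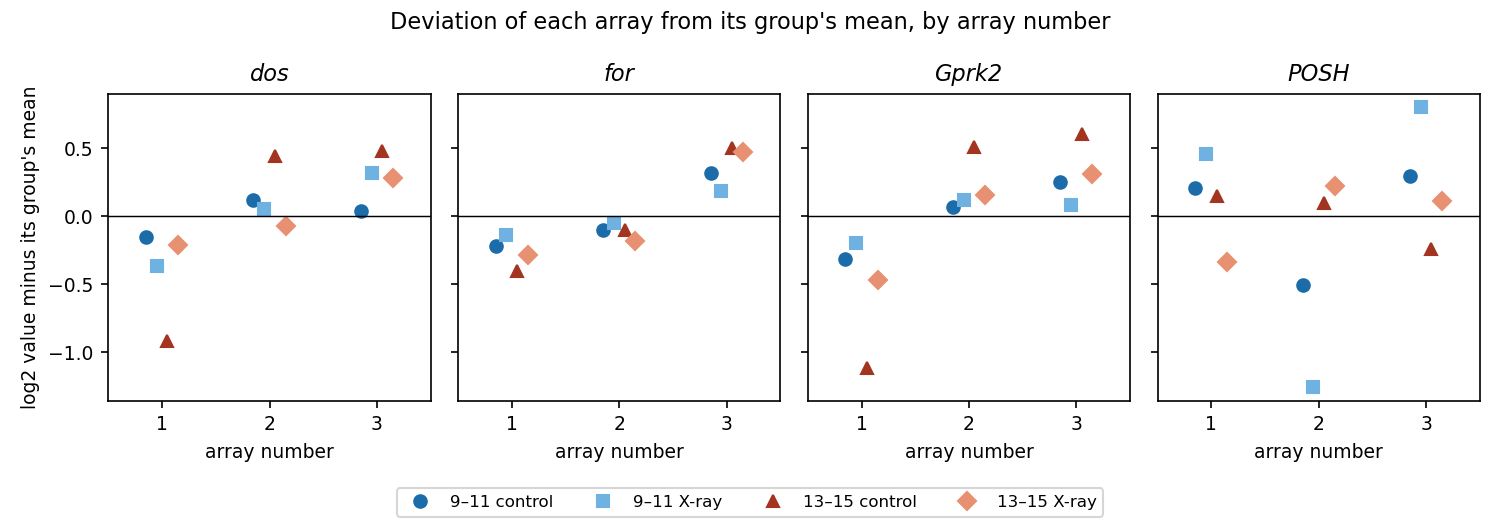
Log2(intensity + 13.3) of each array minus the mean of its group (vertical axis), against the array number (horizontal axis), for the 4 genes, with colour and shape giving the group. All 4 groups of for lie above their mean on number 3, whereas POSH shows no common order of the numbers.

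The scaffold gene POSH passed in none of the stage comparisons and varied widely between arrays of some groups. It read 72.1, 38.8 and 77.4 in controls at stages 9 to 11, and 85.4, 16.9 and 112 in irradiated embryos of that window. At stages 13 to 15 it read 85.3, 81.8 and 62.1 in controls and 26.1, 44.7 and 40.2 after X-rays. The coefficient of variation was 68.7% in the irradiated embryos of the earlier window, where array number 2 lay below the filter value, and 16.4% in the later controls. The log2 stage difference was 0.27 ± 0.44 in controls (SE, n = 3 each, limma adjusted p = 0.707) and −0.54 ± 0.44 in irradiated embryos (SE, n = 3 each, limma adjusted p = 0.435). The lack of a call in irradiated embryos depended on the array that read 16.9. Without that array the log2 difference there was larger, at −1.16, and passed (limma adjusted p = 0.0256). Over the other 21 alternatives that adjusted p was above the threshold, and it reached 0.878.

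The next comparison asks whether X-rays altered these transcripts within 15 to 20 minutes. The stage and X-ray comparisons use the same arrays and are not independent. None of the 4 genes passed in either window, and 0 of the 4 had an unadjusted p under 0.05 in the limma fit of the 4 groups. Of all features, 0.0197% were called at stages 9 to 11 and 0% at stages 13 to 15, and 3.08% and 4.96% had an unadjusted p under 0.05. In the earlier window the log2 differences were −0.12 ± 0.36 for dos, 0.20 ± 0.39 for Gprk2, −0.17 ± 0.25 for for and −0.04 ± 0.44 for POSH (SE, n = 3 each, limma adjusted p = 1.00 for each). The irradiated and control values of each of the 4 genes overlapped in this window, where 7.14% of all features had groups without overlap. The 95% confidence intervals reached 1.85-fold for dos, 2.04-fold for Gprk2, 1.62-fold for for and 1.97-fold for POSH. Changes up to those sizes lie within the error of 3 arrays a group in this fit, which leaves out the array number. With the number as a block, the SE was 0.30 for dos, 0.29 for Gprk2, 0.14 for for and 0.42 for POSH. None was called there either.

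At stages 13 to 15 the largest differences were those of Gprk2 and POSH, in opposite directions. Gprk2 averaged 50.3 ± 32.8 in controls and 87.6 ± 26.6 after X-rays (SD, n = 3 each), giving a log2 difference of 0.81 ± 0.39 (SE, limma unadjusted p = 0.0542, adjusted p = 1.00). It was 0.25 without the control array that read 12.6. Without the later control numbered 3 it was 1.11 (limma unadjusted p = 0.0164, adjusted p = 0.445), and the other single arrays left out gave values between these. With the array number as a block it stayed at 0.81 (limma unadjusted p = 0.0137, adjusted p = 0.589). It was called in none of the 22 alternatives. POSH averaged 76.4 ± 12.5 in controls and 37.0 ± 9.70 after X-rays (SD, n = 3 each), giving a log2 difference of −0.84 ± 0.44 (SE, limma unadjusted p = 0.0753, adjusted p = 1.00). Only POSH among the 4 genes had groups that did not overlap here, which held for 9.29% of all features, 4.25% in this direction. Leaving out single arrays kept the difference of POSH between −0.96 and −0.68, and its 95% confidence interval ran from −1.78 to 0.10. The limma unadjusted p was 0.0281 with only the arrays compared. It was 0.0150 without the X-ray array numbered 2 of the earlier window, which read 16.9, and above 0.05 in every other alternative. The difference of POSH was called in none of the 22 alternatives (lowest limma adjusted p = 0.610). The differences of dos and for were −0.10 ± 0.36 and 0.17 ± 0.25 (SE, n = 3 each, limma adjusted p = 1.00), with intervals reaching 1.83-fold and 1.62-fold on the same scale.

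Within array numbers, Gprk2 was the one member that read higher after X-rays in all 6 same-numbered pairs. The numbers were taken to pair the arrays only at stages 9 to 11, so the signs at stages 13 to 15 are a description. Its log2 differences were 0.32, 0.25 and 0.03 on numbers 1, 2 and 3 at stages 9 to 11, and 1.46, 0.46 and 0.52 at stages 13 to 15. Such a pattern was shown by 1.67% of all features, and the difference passed in neither window. POSH differed by −1.32, −0.71 and −0.50 in the later window but by 0.21, −0.79 and 0.47 in the earlier one, so the earlier arrays had no common sign. For dos the signs differed within both windows. The gene for had 3 negative pairs at stages 9 to 11 (−0.09, −0.12 and −0.30) and 3 positive ones at stages 13 to 15 (0.29, 0.09 and 0.13).

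The X-ray effect at stages 9 to 11 minus that at stages 13 to 15 was tested directly. It was −0.02 ± 0.51 for dos, −0.61 ± 0.55 for Gprk2, −0.34 ± 0.35 for for and 0.81 ± 0.63 for POSH on the log2 scale (SE, limma adjusted p = 0.995 to 0.999). None passed, against 0.0197% of all features, and the 95% confidence interval for POSH ran from −0.52 to 2.14. The difference between the windows for for was therefore within error, although its pairs had opposite signs.

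**Figure D4:**
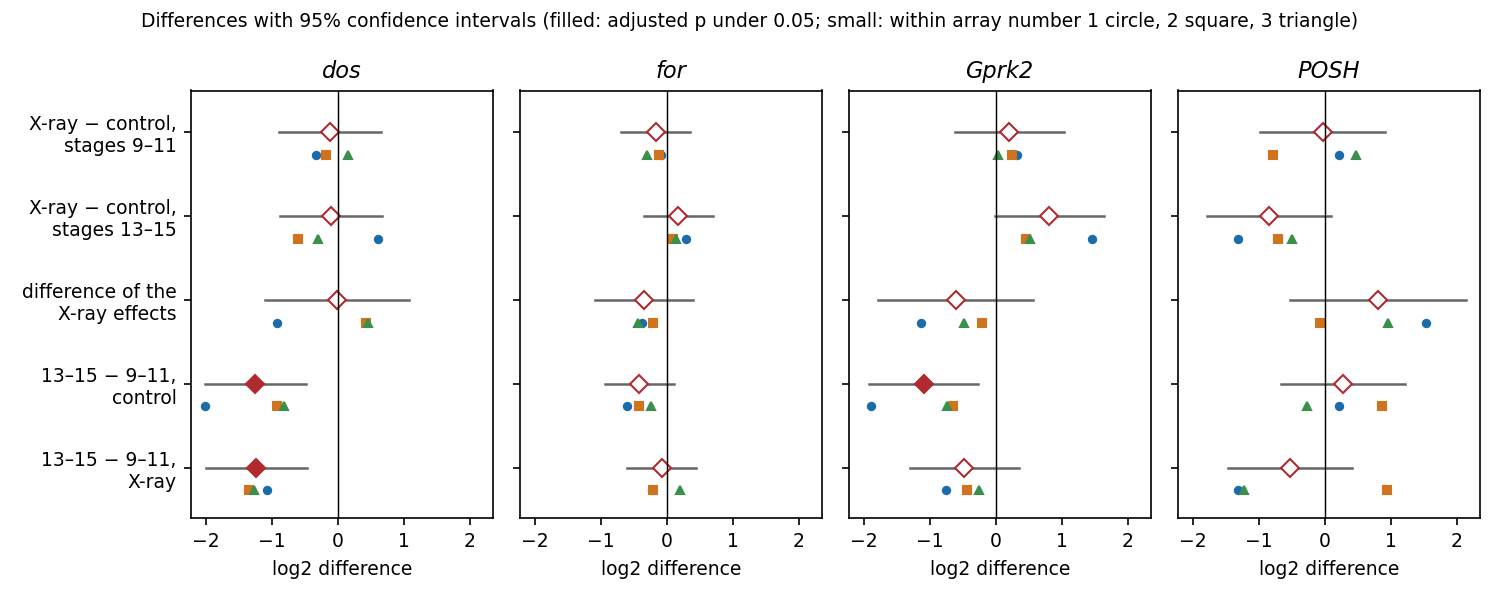
Log2 differences (horizontal axis, diamonds) with 95% confidence intervals (lines) for 5 comparisons in each of the 4 genes, filled where the adjusted p was under 0.05, with small symbols for the difference within array numbers 1, 2 and 3. The filled symbols are the stage differences of dos in control and irradiated embryos and of Gprk2 in controls, and all X-ray intervals include 0.

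Ranked by mean intensity, the groups ordered differently for each gene. For dos both earlier groups (106 ± 11.4 in controls and 98.7 ± 25.8 after X-rays) exceeded both later ones (41.5 ± 24.4 and 34.0 ± 8.52; SD, n = 3 each), and the step between the windows, 57.2, was the one gap larger than the SD of the groups beside it. For Gprk2 the order was irradiated earlier embryos (125 ± 15.7), earlier controls (108 ± 23.5), irradiated later embryos and later controls, and only the last step exceeded the SD. For POSH the only step beyond the SD was the last, from earlier controls (62.8 ± 20.9) to irradiated later embryos. For for, whose group means ran from 376 ± 129 in later controls to 497 ± 104 in earlier controls, no step exceeded the SD.

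Over the 4 genes, 2 were called lower in the later window in controls, where 14.5% of all features were called lower and 26.8% in either direction. In irradiated embryos 1 was called lower, against 11.6% of all features called lower and 23.6% in either direction. The median log2 stage difference of the 4 was −0.76 in controls and −0.51 in irradiated embryos, against 0.05 and −0.02 over all features. With 4 genes, nothing particular to them is read from these counts.

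The profiles of dos and Gprk2 over the 12 arrays were alike, with a Pearson correlation (r) of 0.80 and a Spearman correlation of 0.80. Those of for and Gprk2 gave r = 0.73 and those of dos and for r = 0.66, while POSH had r of −0.20 to 0.09 with the other 3. These correlations across arrays are descriptions: the arrays share the 2 windows and the 3 array numbers, and the array where dos and Gprk2 were both lowest is the same one. Among 132 other named features, the 3 most like dos were those of dome, which encodes the JAK/STAT receptor (r = 0.88), phu (0.88) and RPA2, which encodes part of replication protein A (0.87), with Spearman correlations of 0.80 to 0.90. Their log2 stage differences were −0.93, −0.73 and −2.31 in controls and −0.98, −0.50 and −2.35 in irradiated embryos, given as a description because the features were picked on the same arrays. The least like was Taldo, the transaldolase gene of the pentose phosphate pathway (−0.88), with a stage difference of 1.26 in controls and in irradiated embryos.

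The features most like Gprk2 were dos itself, for, and the chromatin assembly gene Caf1-55 (r = 0.73), and the least like was bai, which encodes a p24 family cargo protein (−0.78). The features most like for were those of Pepck1, a gluconeogenic enzyme gene (r = 0.82), the F-box gene Skp2 (0.79) and the sugar-sensing transcription factor gene Mondo (0.78). The ribosomal protein gene RpL32 was the least like (−0.86). Number 3 minus the mean of numbers 1 and 2 was 0.75, 0.73 and 0.45 on the log2 scale for Pepck1, Skp2 and Mondo and −0.78 for RpL32. These values are descriptions, since the features were picked for their likeness to for over the same arrays. POSH had no close match, with r of 0.49 for CG6345, 0.48 for CG4461 and 0.48 for the kinase gene Snrk, and −0.81 for CG3708.

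Other genes of the same pathways were taken from 5 lists, and few could be named. None of the 29 listed genes of receptor tyrosine kinase and Ras signalling or the 15 of cyclic nucleotide signalling, the surroundings of dos and for, was analysed by name here. Of 25 genes of Hedgehog signalling and receptor desensitisation, the surroundings of Gprk2, 2 could be named and tested. The segmentation gene en was called lower at stages 13 to 15 in controls and in irradiated embryos (log2 differences −1.98 ± 0.25 and −1.17 ± 0.25, SE, limma adjusted p = 3.26e-05 and 0.00278). The opsin gene ninaE, which encodes a G protein-coupled receptor, was not called in any of the 5 comparisons, with log2 stage differences of 0.39 ± 0.36 and −0.39 ± 0.36 (SE). After X-rays it differed by 0.83 ± 0.36 at stages 9 to 11 (SE, limma unadjusted p = 0.0350, adjusted p = 1.00).

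Of the JNK and Imd pathways, the surroundings of POSH, the listed genes Mkk4, DptA, DptB and Dro could be named and tested. None of these 4 was called in any of the 5 comparisons in limma, while 1 of them, Mkk4, had an unadjusted p under 0.05. That was between stages, where 26.8% of all features in controls and 23.6% in irradiated embryos passed even after adjustment. An unadjusted p under 0.05 was therefore common there. Mkk4, which encodes a kinase that activates JNK, had log2 stage differences of −0.58 ± 0.27 in controls (SE, limma unadjusted p = 0.0452, adjusted p = 0.126) and −0.66 ± 0.27 in irradiated embryos (SE, limma unadjusted p = 0.0249, adjusted p = 0.0877). Its X-ray differences were 0.14 and 0.06. Those of the antimicrobial peptide genes DptA, DptB and Dro, targets of Imd signalling, were −0.06, 0.05 and −0.03 at stages 9 to 11 and 0.15, 0.08 and −0.58 at stages 13 to 15, and none of these had an unadjusted p under 0.05. Of 30 other kinases and kinase scaffolds, only the muscle gene Strn-Mlck could be named and tested. It averaged 5.17 ± 1.46 and 5.23 ± 1.16 in control and irradiated embryos at stages 9 to 11, and 52.6 ± 27.7 and 52.9 ± 28.5 at stages 13 to 15 (SD, n = 3 each). The earlier means are under 29.9, so this gene entered the test only through the later groups, and no fold is given.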

How the data were processed

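RNA from whole embryos was measured on 12 arrays, grouped by their titles. The deposited table holds 1 intensity per feature and array, and every column was used. How the authors scanned, background-corrected and normalized the arrays is not stated in any label. In the deposited intensities the array means, trimmed by 2% at each end, are equal to within 0.00230%, so no further normalization was applied. Features were named through the synonyms of a RefSeq table (Release 6 plus ISO1 MT), whatever their case. This named 133 of 13966 gene features, and 44 array controls were left out.

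Values were taken as log2(intensity + 13.3), the pseudocount being the 25th percentile of the table and the filter value of 29.9 its 40th. Group means were fitted with limma 3.58.1 (R 4.3.3), using a trended eBayes moderation, 8 residual degrees of freedom, 2-sided p-values and Benjamini-Hochberg adjustment over 10139 features. The code was tested on simulated data, and the number of arrays limits the precision.

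Array numbers were checked as pairs by correlating deviations from group means. Between control and irradiated arrays at stages 9 to 11 the correlations were 0.130 to 0.421, so the numbers were taken to pair these arrays. The reported fit does not use the pairs, and the array number entered only as a block in an alternative. The genes and pathway lists were chosen with earlier results of these data known. The text names the 4 genes whatever their values, for each the 3 most and the 1 least correlated named features. It also names the genes of the lists that could be named and tested. Alternatives covered normalization, pseudocount, filter, moderation, array weights, the arrays in the fit, the replicate block and each array left out. The size of 1 pathway list is not reported here.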

Additional observations from a re-analysis of the deposited data

How the results depend on the processing

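Over 24 log2 differences of the 4 genes and 22 alternatives, 465 of 520 values kept their direction and their side of the threshold, 30 lost the call, 4 gained one and 21 changed sign, all 21 from differences that had not passed. Where a setting moved a call, the cause was not tested. The stage difference of Gprk2 in controls lost its call at −1.32 with 0.25 times the pseudocount, at −1.09 with no filter, no trend in the moderation or only the arrays compared, at −1.03 with array weights and at −1.27 without the arrays numbered 3. Without those arrays, Gprk2 averaged over treatments (−0.93) and dos in irradiated embryos (−1.22) also lost theirs, for gained one in controls (−0.51) and on average (−0.37), and POSH on average turned to 0.17. With 4 times the pseudocount the X-ray difference of POSH at stages 9 to 11 turned to 0.031, and the early minus late X-ray effect of dos to 0.0057.

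Same-numbered arrays had deviations correlated by 0.0998 to 0.435 between control and irradiated embryos at stages 13 to 15, and by 0.0387 to 0.210 between stages, so these numbers were not taken as pairs. As a hint from the data, every array correlated best with its own number between the control windows (6 of 6), against 5 of 6 between the irradiated ones and 4 of 6 across treatments at stages 13 to 15. With the replicate block, for passed in controls (−0.42, limma adjusted p = 0.0312), and no other call of the 4 genes changed. The features called rose to 3180 in controls and 2881 in irradiated embryos, within 1.5 times the 2719 and 2390 reported.

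Without 1 array, log2 differences of results with a changed call or sign ran as follows. The stage difference in controls ran from −1.49 to −0.79 for dos and from −1.40 to −0.54 for Gprk2. In irradiated embryos it ran from −1.42 to −1.08 for dos, −0.31 to 0.063 for for and −1.16 to −0.14 for POSH. On average over treatments it ran from −0.94 to −0.51 for Gprk2 and −0.45 to 0.066 for POSH. The X-ray difference at stages 9 to 11 ran from −0.27 to 0.066 for dos and −0.44 to 0.59 for POSH, and that at stages 13 to 15 from −0.56 to 0.14 for dos and −0.064 to 0.42 for for. The difference between the effects ran from −0.25 to 0.44 for dos.

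Counts of all features called after X-rays were small under every setting. At stages 9 to 11 the count was 2, with 0 without the trend, 1 with only the arrays compared, 9 without the arrays numbered 3 and 0 to 3 without 1 array. At stages 13 to 15 it was 0 (503 at an unadjusted p under 0.05), with 1 without the arrays numbered 3 and 0 to 1 without 1 array. For the difference between the effects it was 2, with 1 under 4 times the pseudocount, no filter, quantile normalization or the stricter filter, 0 without the trend, 12 without the arrays numbered 3 and 0 to 3 without 1 array. Low signal limits dos, Gprk2 and POSH, which each lay below 29.9 on 1 or 2 arrays.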
